A study of Mus musculus with 6 samples.

Results

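Paraffin can be dissolved out of formalin-fixed, paraffin-embedded (FFPE) tissue with heated mineral oil or with heated xylene before nuclei are released, and these 2 methods were compared in the bulk SCRB-seq wells of mouse brain. The comparison took the wells annotated as mineral oil and as heated xylene, 32 of the 64 wells in the table: 16 per method, 8 with 10 nuclei and 8 with 100 nuclei. All wells came from C57BL/6J mice of 8 to 12 weeks, and FFPE tissue was cut as 50 µm scrolls. After either solvent the scrolls were rehydrated through ethanol and lysed, and nuclei were sorted into plates. The other 32 wells held FFPE nuclei after xylene at room temperature and frozen nuclei (16 each), and the frozen wells serve here as the background. The sources used here give no sex, animal or genotype per well.

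SCRB-seq captures polyadenylated RNA with primers that carry a well barcode, pools the barcoded cDNA of many wells and sequences the 3′ ends of transcripts. A nucleus holds newly made transcripts and retained RNAs such as Malat1, while most ribosomal and mitochondrial transcripts lie outside it. Formalin breaks and modifies RNA, and the way wax is removed could also affect how much of it is recovered. In a bulk well, fewer nuclei of a type and less RNA per nucleus cannot be told apart.

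By the well annotation, each method and nuclei number formed 1 library pool with the same 8 barcodes. Method and pool therefore cannot be told apart, and the 8 wells of a pool are technical wells. At 100 nuclei, 80 genes (2.52% of the 3174 present in every mineral oil well) had counts in all 8 mineral oil wells and none in the heated xylene wells, and 104 genes (2.50% of 4152) had the reverse pattern. Between the frozen pools of 10 and of 100 nuclei such genes numbered 0 of 1405 and 25 of 4320. Between heated and room-temperature xylene at 100 nuclei they numbered 28 of 4152 and 42 of 3983. At 10 nuclei, 22 of 367 were in mineral oil and not heated xylene, and 667 of 2417 in heated xylene and not mineral oil. P-values below therefore describe the spread between wells of these pools and not between animals or preparations. When each pool was summed and the pools of the 3 FFPE methods were used as the replicates, edgeR called 0 of 1288 genes (53 at an unadjusted p under 0.05). That pool-level result was added after seeing the data and covers the contrast over both nuclei numbers; within 1 nuclei number each method has 1 pool, so no pool-level test was made there.

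The mineral oil wells of 10 nuclei were the shallowest. Mouse counts per well ran from 7512 through a median of 14557.5 to 20593 there, from 28953 to 97128 in heated xylene at 10 nuclei, from 32178 to 105967 in mineral oil at 100 and from 51955 to 147257 in heated xylene at 100. Summed over 8 wells, the 10-nucleus mineral oil pool held 115185 mouse counts, so that 3 counts, the limit a count of 0 allows, equal 26.0 gene counts per 1000000 mouse counts (CPM). The same floor was 6.82 CPM for heated xylene at 10 nuclei, 5.28 for mineral oil at 100 and 4.36 for heated xylene at 100. Floors cover counting error only.

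Counts were more concentrated in few genes in the 10-nucleus mineral oil wells. The largest genes of a well are here those with the most counts, whatever their length. The 50 largest genes of a well held 29.7% to 62.2% of its mouse counts there (mean ± SD, 47.98% ± 10.6, n = 8), against 20.5% to 31.0% in heated xylene (25.2% ± 3.89) and 18.6% to 24.9% in frozen wells of 10 nuclei. The difference of 22.8 percentage points had an exact permutation p of 0.000466 (2-sided; 0.00107 after Benjamini-Hochberg adjustment over 16 tests of per-well measures). At 100 nuclei the shares were 19.0% ± 4.20 and 17.1% ± 1.89, and the difference of 1.89 points did not pass (exact permutation p = 0.279, adjusted 0.312). The method difference itself was larger at 10 than at 100 nuclei by 20.9 points (permutation p = 0.00194, adjusted 0.00331).

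Ctsc, which encodes the lysosomal protease cathepsin C, and Tspan3, a tetraspanin, held the largest shares in the 10-nucleus mineral oil pool; they and the 3 genes after them are named after their values were seen. Together they held 19.2% of the counts in the 10-nucleus mineral oil pool, 6.93% in heated xylene at 10 nuclei, 3.42% in mineral oil at 100 and 2.47% in heated xylene at 100. In the frozen pools the pair held 0.0693% and 0.0189%. Ctsc rose in mineral oil over both nuclei numbers by 0.93 on the log2 scale (SE 0.28, edgeR adjusted p = 0.00847). Sft2d2, Dlgap1 and Nebl followed at 2.21%, 2.05% and 1.89% of the 10-nucleus mineral oil pool.

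Counts on human genes, which the table carries beside the mouse genes, made up 22.9% to 31.8% of each 10-nucleus mineral oil well (26.7% ± 3.10, n = 8) and 12.7% to 20.7% of each heated xylene well of 10 nuclei (15.4% ± 2.80). The groups did not overlap, and the difference of 11.3 points had an exact permutation p of 0.000155, the smallest that 8 against 8 wells can give (adjusted 0.000427). At 100 nuclei the shares were 10.4% ± 2.61 and 9.11% ± 1.66 (difference 1.29 points, exact permutation p = 0.256, adjusted 0.312). Frozen wells had 2.78% ± 0.538 at 10 nuclei and 1.91% ± 0.243 at 100. In counts rather than shares, human genes drew a mean of 5297 per well in mineral oil and 9908 in heated xylene at 10 nuclei, and 7714 and 8331 at 100.

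**Figure D1:**
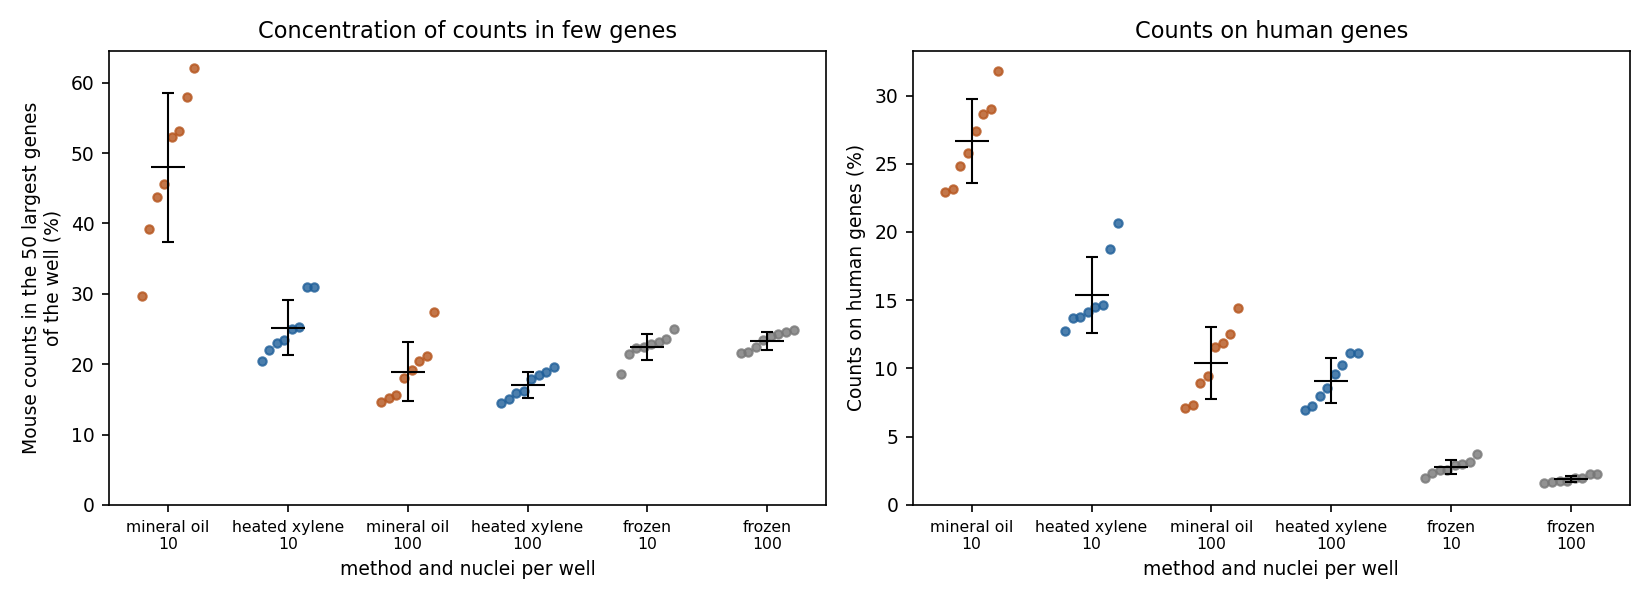
Share of mouse counts in the 50 largest genes of each well (left, %) and share of all counts on human genes (right, %), by method and nuclei per well; points are wells (n = 8 per group), black bars the mean and SD. The 10-nucleus mineral oil wells reach 62.2% and 31.8%, while the 100-nucleus groups of both methods overlap.

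At equal depth, mineral oil wells of 10 nuclei still held fewer genes. Thinned to 7512 mouse counts, they showed 1162 to 1932 genes, against 2531 to 2898 in heated xylene, with no overlap. At 100 nuclei the thinned wells held 2797 to 3519 and 3093 to 3431 genes, ranges that overlapped.

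In the main fit of 1288 mouse genes, more genes fell than rose in mineral oil, and more were called at 10 than at 100 nuclei. The margins varied between settings. A gene at 0 counts in the shallow 10-nucleus mineral oil pool could still enter the filter on low counts through other wells. Of the tested genes, 140 were at 0 in that pool, against 8 in heated xylene at 10 nuclei. How depth and the filter shaped these counts was not tested. Averaged over both nuclei numbers, 488 genes were called at an edgeR adjusted p under 0.05 (37.9% of those tested), 89 higher in mineral oil (6.91%) and 399 lower (31%). At 10 nuclei 553 were called (42.9%), 100 higher (7.76%) and 453 lower (35.2%). At 100 nuclei 41 were called (3.18%), 15 higher (1.16%) and 26 lower (2.02%). Without the filter 3055 genes were called at 10 nuclei (341 higher, 2714 lower) and 2742 at 100 (1351 higher, 1391 lower). In wells thinned to 7512 counts, where 87 genes were tested, 15 were called at 10 nuclei (7 higher, 8 lower) and 1 at 100. The size of the method difference itself changed between 10 and 100 nuclei for 380 genes (29.5%). The median log2 fold change of all tested genes was -0.38 over both numbers, -0.63 at 10 nuclei and 0.02 at 100. DESeq2's size factors moved the 10-nucleus median to -0.48, so lists are set beside these medians. Of the 453 genes lower at 10 nuclei, 134 had no count at all in the mineral oil pool. For such genes a fold is given as a lower bound, from pooled counts with 3 counts over the 8 wells in place of 0, and list medians are also given with those genes at their bound.

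The differences at 10 and at 100 nuclei were weakly related. Of 1288 genes, 723 (56.1%) differed in the same direction at both numbers, with a Pearson r of 0.09 and a Spearman rho of 0.14 across genes, which are not independent and share their pools. There were 30 genes called at both numbers, and 20 of them moved the same way.

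**Figure D2:**
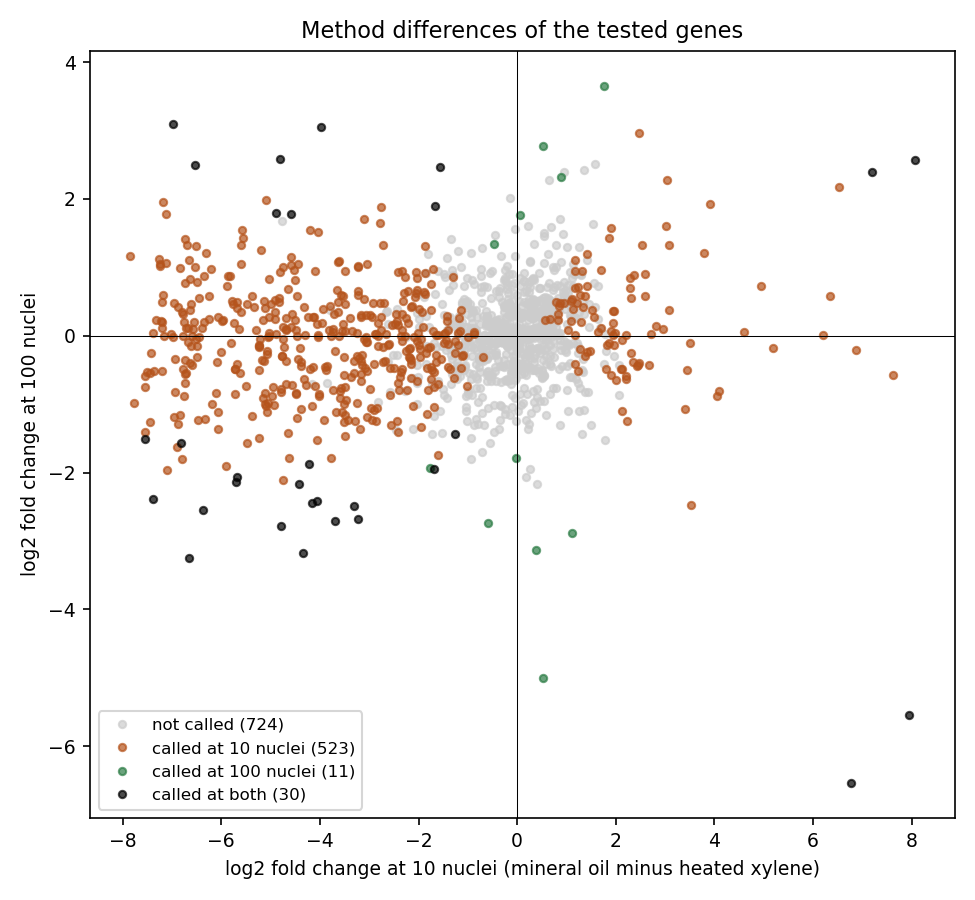
Log2 fold change (mineral oil minus heated xylene) of the 1288 tested genes at 10 nuclei (horizontal) and at 100 nuclei (vertical); each point is a gene, coloured by where it was called. The 523 genes called at 10 nuclei alone spread along the horizontal axis, and the 30 called at both numbers fall on both sides of 0.

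Oligodendrocyte genes were lower in mineral oil at both nuclei numbers. Of 10 listed genes, 3 passed the filter on low counts, and all 3 fell at 10 nuclei and at 100, against backgrounds of 35.2% and 2.02% of tested genes. The filter counts wells of both methods together, so a gene can enter it through heated xylene wells alone. Cldn11, at 110 CPM or less in mineral oil wells of 100 nuclei, did so. The count of fallers among the tested genes is therefore no test of the list. The summed CPM of the 10 genes ran from 512 through a median of 911 to 2168 in mineral oil wells of 100 nuclei and from 1864 through 3558 to 6414 in heated xylene. The 100-nucleus groups overlapped in 1 mineral oil well, at 2168 CPM. At 10 nuclei the sums were 0, 47.9 and 153 in mineral oil (lowest, median, highest) and 1295, 1796 and 4180 in heated xylene. Frozen wells summed to 162 to 876 CPM at 10 nuclei and 317 to 685 at 100, below every heated xylene well.

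Mbp, which encodes myelin basic protein, ran from 68.3 through 204 to 402 CPM in mineral oil wells of 100 nuclei and from 334 through 626 to 1012 in heated xylene. It fell by 1.51 on the log2 scale at 100 nuclei (SE 0.40, edgeR adjusted p = 0.0280), with 134 counts against 459. In 10-nucleus mineral oil wells it had 0 counts against 174 in heated xylene, at least 15.2-fold lower. Cldn11, the tight-junction claudin of myelin, fell by 2.39 at 100 nuclei (SE 0.59, adjusted p = 0.0184) and was at least 12.2-fold lower at 10. With all 48 FFPE wells in the fit the 100-nucleus calls of Mbp and Cldn11 were lost (adjusted p = 0.0571 and 0.0580). Mag, the myelin-associated glycoprotein, did not pass the filter and is named after its values were seen. It had 0 counts in both mineral oil pools, 26 in heated xylene at 10 nuclei and 110 at 100, in 8 of 8 wells there. Of other listed genes under the filter, Mobp and Mog, both of myelin, had 21 and 19 counts in mineral oil at 100 nuclei and 91 and 148 in heated xylene. St18, a zinc finger factor of oligodendrocytes, had 117 and 124 counts there, with median wells at 173 and 107 CPM, higher in mineral oil. These 3 are also named after their values were seen.

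Genes of inhibitory neurons showed the same direction at both nuclei numbers. Of 13 listed genes, 12 were in the table and 3 were tested; Gad1 and Adarb2 fell at 10 nuclei and at 100, and Erbb4 did not pass, against backgrounds of 35.2% and 2.02% lower. Gad1, at 120 CPM or less in mineral oil wells of 100 nuclei, entered the filter on low counts through heated xylene wells. The count of fallers is therefore no test of this list. The listed genes summed to 192, 607 and 1475 CPM (lowest, median, highest) in mineral oil at 100 nuclei and to 1175, 2172 and 3019 in heated xylene. At 10 nuclei they summed to 0, 236 and 2741 CPM and to 677, 1643 and 2667. Frozen wells summed to 296 to 1116 CPM at 10 nuclei and 334 to 1085 at 100.

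Gad1, the enzyme that makes GABA (chromosome 2, 70553072 to 70602014, plus strand, GRCm38), ran from 20.2 through 43.8 to 120 CPM in mineral oil at 100 nuclei and from 230 through 310 to 531 in heated xylene, with no overlap. It fell by 2.71 on the log2 scale (SE 0.48, edgeR adjusted p = 0.000576). At 10 nuclei it had 2 counts in mineral oil and 109 in heated xylene and fell by 3.69 (SE 0.71, adjusted p = 7.02e-05). Adarb2, an RNA-editing family member of a class of interneurons, fell by 1.88 at 100 nuclei (SE 0.53, adjusted p = 0.0387) and by 4.22 at 10 (SE 0.76, adjusted p = 2.96e-05). Erbb4, the neuregulin receptor of many interneurons, was at 390 and 507 CPM in the median well at 100 nuclei (log2 difference -0.89, adjusted p = 0.577).

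Of the striatal spiny neuron list, Meis2, a homeodomain factor of striatal and other neurons, was one of 2 tested genes. Meis2 entered the filter on low counts mainly through heated xylene wells, where it was high, so its fall is no test of the list. Its counts were 60 in the mineral oil pool of 100 nuclei and 435 in heated xylene, from 0 through 48.5 to 255 CPM and from 135 through 611 to 1077 CPM per well. It fell by 2.77 on the log2 scale (SE 0.61, edgeR adjusted p = 0.00468) at 100 nuclei and by 4.80 at 10 (SE 1.04, adjusted p = 0.000301). Pde10a, a phosphodiesterase rich in striatal neurons, was at 654 and 529 CPM in the median wells at 100 nuclei (log2 difference 0.28, adjusted p = 0.891). Drd1 and Tbr1, a dopamine receptor of striatal neurons and a factor of deep cortical neurons, had 0 counts in all 4 pools; both are named after their values were seen.

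Cerebellar granule neuron genes behaved differently at the 2 nuclei numbers. The 11 listed genes in the table summed to 3386, 4307 and 6029 CPM (lowest, median, highest) in mineral oil at 100 nuclei and to 2891, 3136 and 3567 in heated xylene. None of the 8 tested genes passed at 100 nuclei, where their median log2 fold change was 0.78 against 0.02 for all tested genes. At 10 nuclei the sums were 449, 1212 and 7055 CPM in mineral oil and 1457, 2818 and 3627 in heated xylene, 1 gene rose and 4 of 8 fell, near the 7.76% and 35.2% of all tested genes, and the median was -1.54 against -0.63 for all. For 4 of the 8 the method difference was lower at 10 than at 100 nuclei, against 29.5% of all tested genes called in either direction.

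Cbln3, a secreted cerebellin, rose over both numbers by 1.16 on the log2 scale (SE 0.42, edgeR adjusted p = 0.0265). At 10 nuclei 2 mineral oil wells stood at 4280 and 4393 CPM, and the other 6 lay at 187 to 486 CPM against 56.0 to 530 in heated xylene. The call was lost without the filter, in the additive fit, without nuclei number and with the barcode block (adjusted p = 0.109, 0.0715, 0.0648 and 0.0813). Fat2, a giant cadherin of granule neurons, had 0 counts in mineral oil and 95 in heated xylene at 10 nuclei (at least 8.30-fold lower), but 212 and 122 at 100 nuclei, where the log2 difference was 1.11 (adjusted p = 0.274). Zic1, a zinc finger factor of these neurons, fell over both numbers by 1.10 (SE 0.39, adjusted p = 0.0231), with log2 differences of -3.22 at 10 nuclei and 1.01 at 100; in an additive fit the call was lost (adjusted p = 0.504). Chn2, a Rac-regulating chimaerin and the most abundant tested member, did not pass over both numbers (log2 difference -0.47, adjusted p = 0.423).

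The labels call the tissue cortex, and these wells held granule neuron genes that frozen wells lacked. Gabra6 and Cbln3 had a mean of 0 CPM in frozen wells of both nuclei numbers, against 522 and 363 CPM in mineral oil at 100 nuclei. The whole granule list summed to 114 to 605 CPM in frozen wells of 10 nuclei and 267 to 525 at 100. Cortical excitatory neuron genes went the other way. Their 11 listed genes summed to a median of 679 CPM in mineral oil and 713 in heated xylene at 100 nuclei, and 2667 in frozen wells. None of the 11 passed the filter on low counts. Which brain regions entered each pool was not tested.

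**Figure D3:**
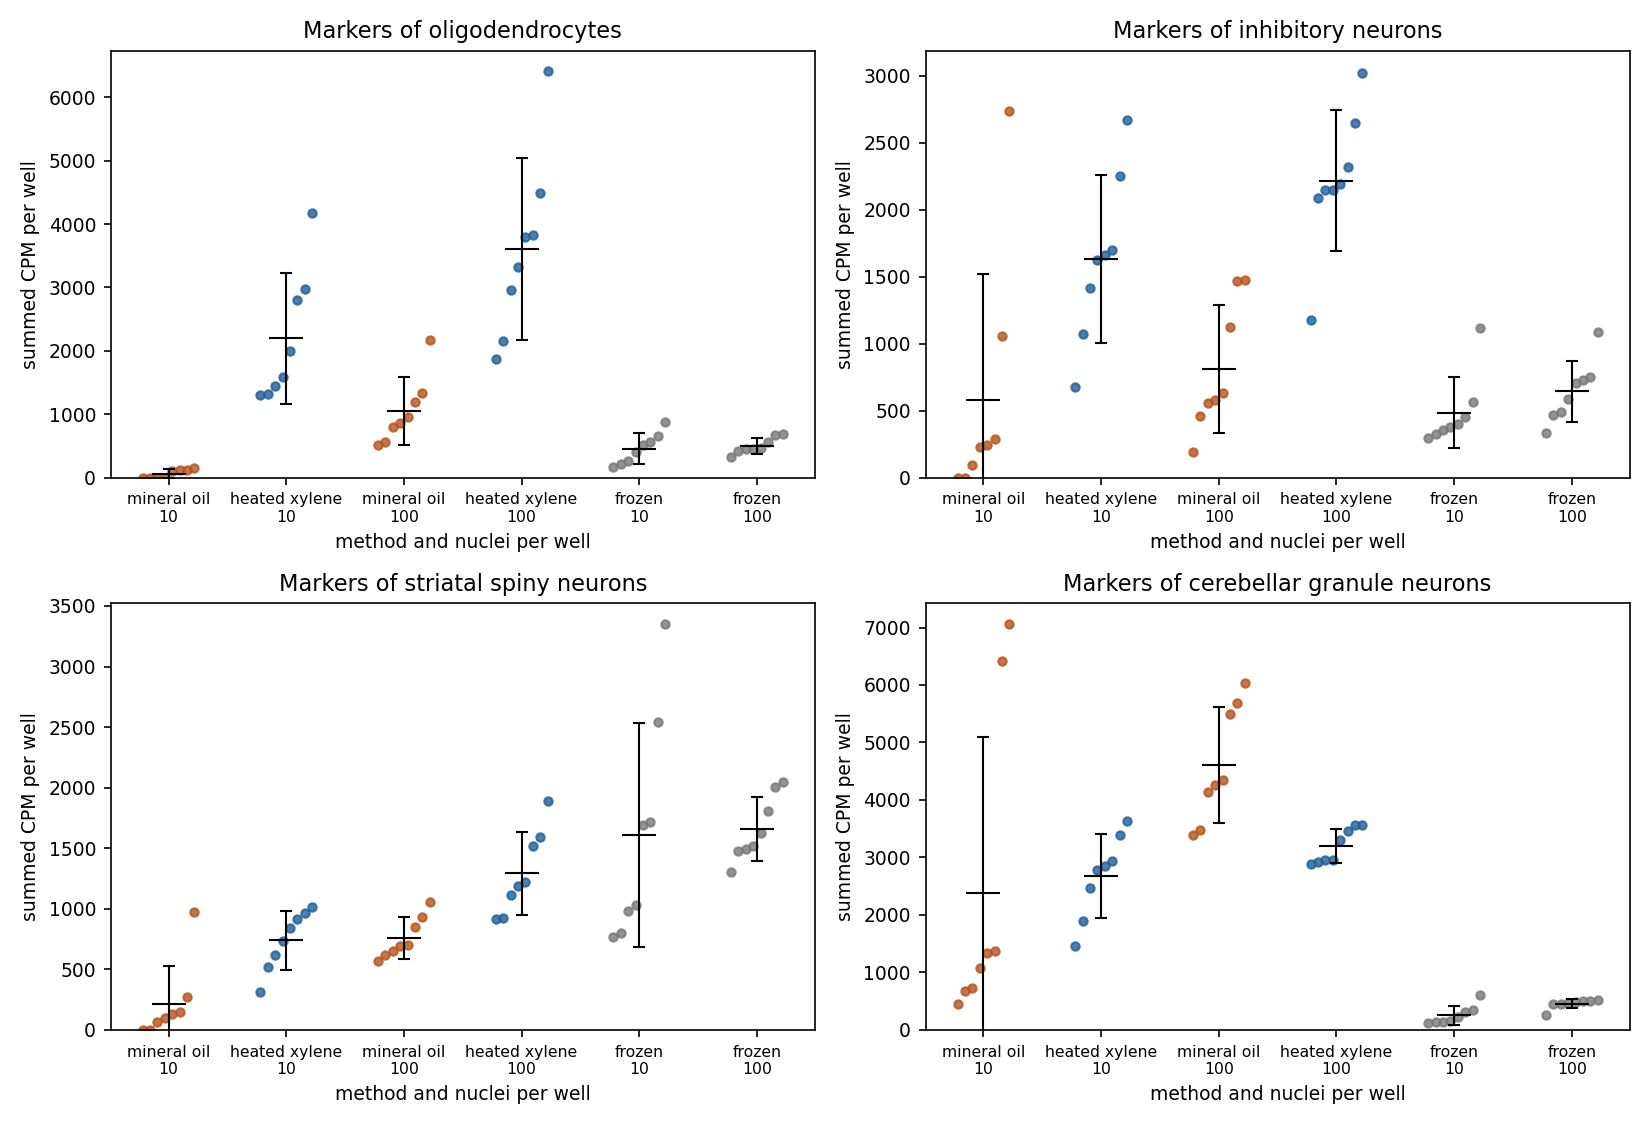
Summed CPM of the listed marker genes per well for 4 cell classes (vertical axes from 0), by method and nuclei per well; points are wells (n = 8 per group), black bars the mean and SD. Oligodendrocyte sums in mineral oil at 100 nuclei reach at most 2168 CPM while heated xylene starts at 1864, and granule neuron sums are above all frozen wells in every 100-nucleus FFPE well.

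Of 4 tested astrocyte genes, 1 fell at 10 nuclei and over both numbers, near the 35.2% and 31% of all tested genes, and none passed at 100 nuclei; the sums were 1888, 3440 and 4228 CPM in mineral oil and 2031, 3019 and 3951 in heated xylene at 100 nuclei (lowest, median, highest). Sparcl1, an astrocyte matrix protein, fell over both numbers by 2.59 on the log2 scale (SE 0.48, edgeR adjusted p = 6.41e-05). It had 1 count in mineral oil and 243 in heated xylene at 10 nuclei, but 329 and 279 at 100, and an additive fit did not call it (adjusted p = 0.145). Gpc5, a glypican of astrocytes, was at a median of 928 and 1259 CPM at 10 nuclei and 775 and 1103 at 100 (log2 difference over both numbers -0.24, adjusted p = 0.440).

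Markers of Purkinje neurons, microglia, endothelial cells and mural or leptomeningeal cells had no tested gene. Microglia genes summed to medians of 654 CPM in mineral oil and 372 in heated xylene at 100 nuclei, and to 31.2 and 407 at 10. Tnr, the one tested gene of the precursor list and a matrix protein of oligodendrocyte precursors, did not pass (log2 difference over both numbers -0.56, adjusted p = 0.284).

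Most tested genes of energy metabolism fell in mineral oil at 10 nuclei, and none fell at 100. The nuclear-encoded respiratory chain had 17 tested genes of 87 listed. At 10 nuclei 12 fell and 2 rose, against 35.2% and 7.76% of all tested genes, with a median log2 fold change of -4.83 (-3.09 with genes at their bound) against -0.63 for all tested genes. At 100 nuclei 1 rose and none fell, against 1.16% and 2.02% of all tested genes, and the median was 0.42. The difference between nuclei numbers passed for 14 of the 17, lower at 10 for 12, against 29.5% of all tested genes in either direction. Summed over the list, mineral oil wells of 10 nuclei ran from 1746 through 2833 to 5559 CPM and heated xylene wells from 6630 through 7792 to 11363, while at 100 nuclei the medians were 10385 and 8367 CPM. Frozen wells summed to 3285 to 6869 CPM at 10 nuclei, overlapping mineral oil and mostly below heated xylene, and to 4332 to 6875 at 100.

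Atp5a1, the alpha subunit of ATP synthase, had 0 counts in mineral oil and 154 in heated xylene at 10 nuclei, at least 13.4-fold lower, and 95 and 298 counts at 100 (log2 difference -1.26, edgeR adjusted p = 0.0935). Ndufv2, a core subunit of complex I, had 0 and 102 counts at 10 nuclei, at least 8.91-fold lower. Ndufa2 and Sdha went the opposite way. Ndufa2, another complex I subunit, had 38 counts over 8 of 8 mineral oil wells and 0 in heated xylene at 10 nuclei (at least 48.4-fold higher), and rose at 100 nuclei by 2.39 on the log2 scale (SE 0.65, adjusted p = 0.0357). Sdha, the flavoprotein of succinate dehydrogenase, had 24 and 0 counts at 10 nuclei (at least 30.5-fold higher). Cox6b1, a cytochrome oxidase subunit and the most abundant tested member, did not pass (medians of 452 and 462 CPM at 10 nuclei, adjusted p over both numbers = 0.350).

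In glycolysis, 7 of 8 tested genes fell at 10 nuclei and over both numbers, against 35.2% and 31% of all tested genes, and none passed at 100. The median was -5.21 at 10 nuclei (-2.91 at the bound) and 0.04 at 100, against -0.63 and 0.02 for all. The list summed to 0, 127 and 688 CPM per well in mineral oil at 10 nuclei (lowest, median, highest) and to 1681, 2059 and 2486 in heated xylene, with no overlap; at 100 nuclei the medians were 2839 and 3227 CPM. Frozen wells lay between the methods at 10 nuclei, at 852 to 1460 CPM, and at 1226 to 2322 CPM at 100. Aldoa, an aldolase and the most abundant tested member, had 0 counts in mineral oil and 165 in heated xylene at 10 nuclei (at least 14.4-fold lower), and 333 and 572 at 100 (log2 difference -0.59, adjusted p = 0.439). Aldoc, its brain isoform, and Pfkm, a phosphofructokinase, were at least 9.52-fold and 4.72-fold lower at 10 nuclei, with log2 differences of 0.12 and 0.72 at 100 that did not pass.

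Of genes encoded in the mitochondrial genome, 4 of 8 tested genes fell at 10 nuclei, against 35.2% of all tested genes, and none passed at 100. The list's median was -1.23 at 10 nuclei, against -0.63 for all. The complex I subunits mt-Nd6 and mt-Nd2 fell over both numbers, with log2 fold changes of -2.40 and -1.55 (SE 0.54 and 0.33, edgeR adjusted p = 0.000578 and 0.000321); an additive fit did not call mt-Nd6 (adjusted p = 0.240). The most abundant member, mt-Nd1, another complex I subunit, was at medians of 2304 and 2646 CPM at 10 nuclei and 3071 and 2809 at 100 (log2 difference over both numbers 0.07, adjusted p = 0.829).

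Of 6 tested translation factors, 5 fell at 10 nuclei (median -4.96, -3.63 at the bound), against 35.2% of all tested genes (median -0.63), and none passed at 100 (median 0.01). Eif4a2, an initiation helicase, had 0 and 132 counts at 10 nuclei (at least 11.5-fold lower) and 77 and 83 at 100. Eif4g3, an initiation scaffold and the most abundant tested member, did not pass (log2 difference over both numbers 0.25, adjusted p = 0.727). Cytosolic ribosomal proteins had 7 tested genes, of which 4 fell at 10 nuclei, against the same 35.2%, and none passed at 100. Rpl8 was at least 12.9-fold lower at 10 nuclei, and Rps14 fell by 2.81 there (SE 0.77, adjusted p = 0.00298).

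Of 8 tested dense-core vesicle genes, 5 fell at 10 nuclei (median -4.87, -2.64 at the bound), against 35.2% of all tested genes (median -0.63), and 1 fell at 100 (median 0.04), against 2.02%. That gene was Ptprn, a dense-core vesicle phosphatase-like protein, which had 15 counts in the mineral oil pool of 100 nuclei and 170 in heated xylene, 12.2 to 60.2 CPM and 53.0 to 731 CPM per well. Ptprn entered the filter on low counts through heated xylene wells, so its call is no test of the list. It fell by 3.24 on the log2 scale (SE 0.52, edgeR adjusted p = 0.000289) and was at least 7.86-fold lower at 10 nuclei. Scg5, a granin-related chaperone, was at least 5.76-fold lower at 10 nuclei, and Cpe, a peptide-processing carboxypeptidase and the most abundant tested member, did not pass over both numbers (0.28, adjusted p = 0.458).

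Of 10 tested genes for calmodulin, CaM kinases and calcineurin, 8 fell at 10 nuclei (median -2.25), against 35.2% of all tested genes (median -0.63), and none passed at 100 (median 0.15). The fall at 10 nuclei exceeded that at 100 for 7 of them, against 29.5% of all tested genes called for that difference in either direction. Camk2n1, an inhibitor of CaM kinase II, was at least 10.7-fold lower at 10 nuclei, with 81 and 104 counts at 100. Ppp3cb, a calcineurin catalytic subunit, fell at 10 nuclei by 3.26 (SE 0.47, adjusted p = 1.4e-06), from a median of 571 CPM in heated xylene to 70.1 in mineral oil. Camk4, a nuclear CaM kinase abundant in granule neurons, fell at 10 nuclei by 1.75 (SE 0.52, adjusted p = 0.00588) and at 100 nuclei was at medians of 1259 and 796 CPM (log2 difference 0.38, adjusted p = 0.790).

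Of 11 tested tubulins and microtubule-associated proteins, 6 fell and 1 rose at 10 nuclei, against 35.2% and 7.76% of all tested genes, and none passed at 100. Tubb5, a beta tubulin, rose: it had 51 counts over 8 of 8 mineral oil wells and 0 in heated xylene at 10 nuclei (at least 64.9-fold higher), and 59 and 97 counts at 100. Map2, the dendritic microtubule protein, had 0 and 87 counts at 10 nuclei (at least 7.60-fold lower). Of its heated xylene wells there, 1 stood at 803 CPM and the others at 20.6 to 294. Mapt, which encodes tau, did not pass (log2 difference over both numbers 0.28, adjusted p = 0.705). Ion-pumping ATPases had 4 of 8 tested genes lower at 10 nuclei, not far from the 35.2% of all genes, and none called at 100.

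**Figure D4:**
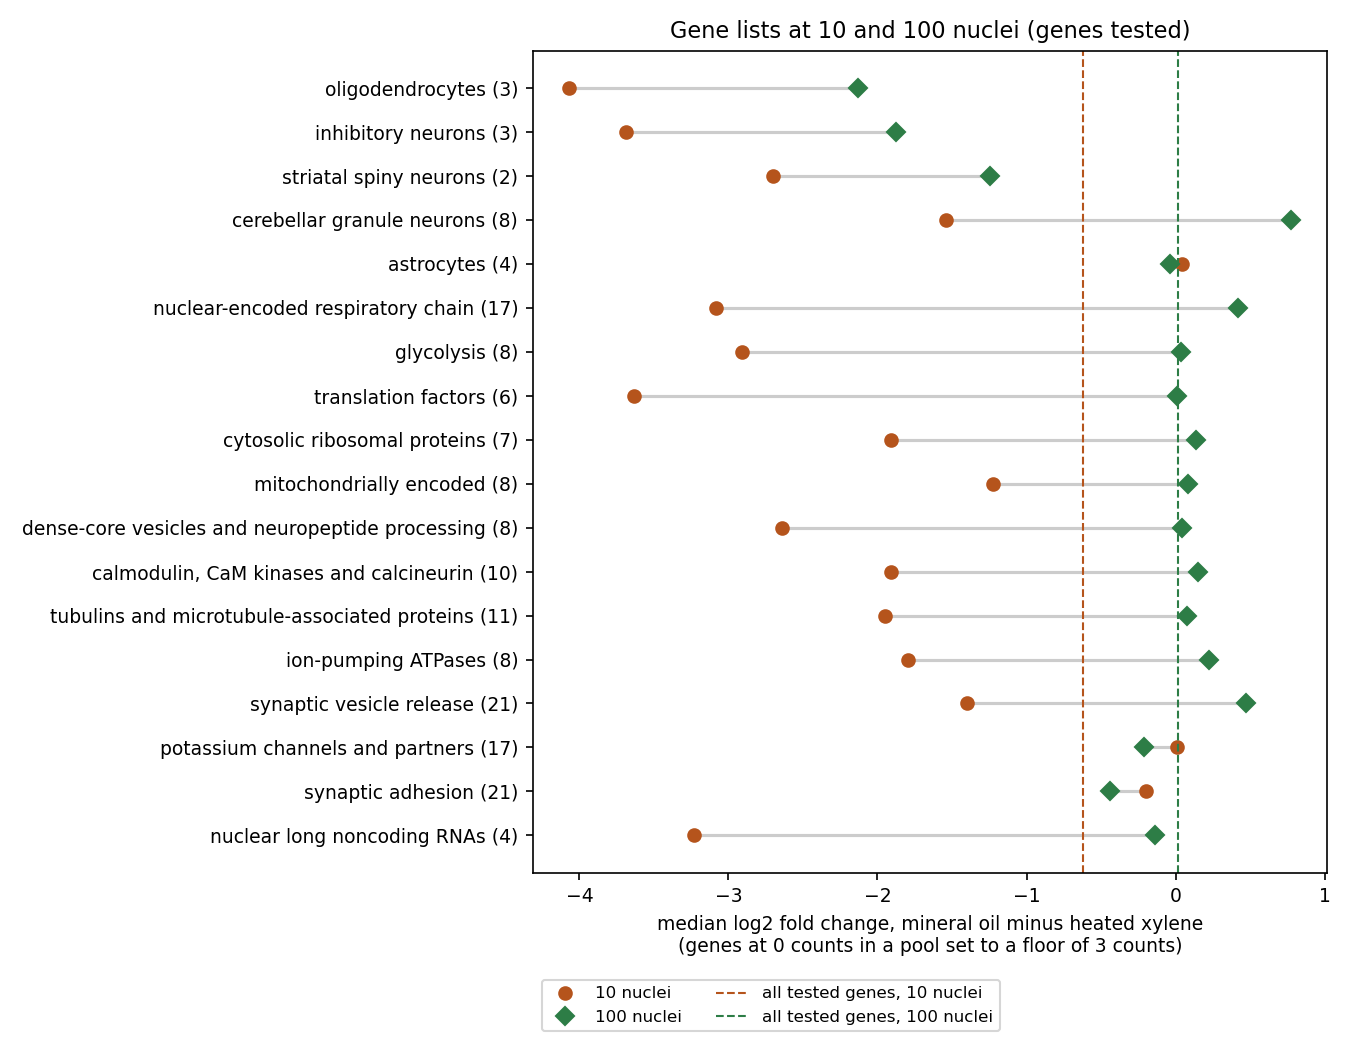
Median log2 fold change (mineral oil minus heated xylene) of the tested genes of 18 lists at 10 nuclei (circles) and 100 nuclei (diamonds), with genes at 0 counts in a pool set to a floor of 3 counts; dashed lines are the medians of all tested genes and brackets give the genes tested. Oligodendrocyte and inhibitory lists sit below 0 at both numbers, as does the midpoint of the 2 striatal genes, of which Pde10a is at 0.28 at 100 nuclei, while the respiratory chain moves from -3.09 at 10 nuclei to 0.42 at 100.

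Synaptic genes were mixed. Of 21 tested genes of synaptic vesicle release, 11 fell and 2 rose at 10 nuclei, against 35.2% and 7.76% of all tested genes, and 1 rose at 100, against 1.16%. Erc1, an active-zone scaffold, rose at 10 nuclei, with 96 counts over 7 of 8 mineral oil wells and 4 in heated xylene, a log2 difference of 6.34 (SE 0.99, edgeR adjusted p = 4.96e-06). Its wells ranged from 0 to 5272 CPM. Cplx2, a complexin that clamps fusion, fell by 4.48 at 10 nuclei (SE 0.74, adjusted p = 1.01e-05), with 2 counts against 160. Erc2, a close relative of Erc1 and the most abundant tested member, was at a median of 3520 CPM in mineral oil and 1517 in heated xylene at 10 nuclei and did not pass there (adjusted p = 0.0561). Among ionotropic glutamate receptors 4 of 10 tested genes fell at 10 nuclei, near the 35.2% of all tested genes, and none passed at 100; Grin2b, an NMDA receptor subunit, was at least 8.38-fold lower at 10 nuclei. Of its heated xylene wells there, 1 stood at 770 CPM and the others at 18.7 to 479.

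Among potassium channels and partners more members rose than fell: 5 rose and 3 fell of 17 tested at 10 nuclei, against backgrounds of 7.76% and 35.2%, and none passed at 100. Kcnip4, a channel-interacting protein and the most abundant member, rose over both numbers by 0.64 on the log2 scale (SE 0.21, edgeR adjusted p = 0.0130), with medians of 3941 and 1934 CPM at 10 nuclei and 5795 and 4260 at 100; without the filter on low counts the call was lost (adjusted p = 0.258). Kcnj12, an inward rectifier, had 65 and 2 counts at 10 nuclei and 72 and 80 at 100. Of 21 tested synaptic adhesion genes, 7 fell at 10 nuclei, near the 35.2% of all tested genes, and 1 rose at 100, against 1.16%. The riser was Cntnap1, a contactin partner of axons, with 150 counts in mineral oil and 14 in heated xylene at 100 nuclei (log2 3.66, SE 0.76, adjusted p = 0.00281). Nrxn3, a presynaptic neurexin and the most abundant member, did not pass (medians of 2863 and 4829 CPM at 100 nuclei, adjusted p = 0.279).

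Long noncoding RNAs that stay in the nucleus were lower in mineral oil at 10 nuclei. All 4 tested genes of this list fell at 10 nuclei and over both numbers, against 35.2% and 31% of all tested genes. The median was -3.23 at 10 nuclei, against -0.63 for all, and none passed at 100 (median -0.13). Snhg11, a neuronal snoRNA host, ran from 60.9 through 129 to 288 CPM in mineral oil at 10 nuclei and from 1472 through 1942 to 2979 in heated xylene, with no overlap, and fell by 3.96 (SE 0.31, edgeR adjusted p = 2.12e-12). At 100 nuclei its medians were 1965 and 1902 CPM. Meg3, an imprinted neuronal RNA, fell at 10 nuclei by 2.50 (SE 0.37, adjusted p = 2.26e-06). Neat1, the scaffold of paraspeckles, had 1 and 154 counts at 10 nuclei and 135 and 167 at 100.

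Malat1, the most abundant member, fell by less than the list's median. Its wells ran from 2344 through 5398 to 9984 CPM in mineral oil and from 4912 through 8838 to 9809 in heated xylene at 10 nuclei, groups that overlapped, and it fell by 0.70 on the log2 scale (SE 0.20, edgeR adjusted p = 0.00396). That value is close to the median of all tested genes, -0.63. At 100 nuclei the medians were 12306 and 15258 CPM (log2 difference -0.30, adjusted p = 0.528). Frozen wells held a mean of 83721 CPM at 10 nuclei and 100067 at 100.

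The other lists are read against 35.2% lower and 7.76% higher among all genes tested at 10 nuclei, and several lie near those shares. At 10 nuclei 3 of 5 tested metabotropic glutamate receptors, 3 of 6 GABA-A receptor subunits, 6 of 11 receptor-type tyrosine phosphatases and 8 of 20 solute carriers fell. Of 17 tested splicing regulators 7 fell and 2 rose, of 16 chromatin regulators 4 fell and 3 rose, and of 10 postsynaptic scaffold genes 3 fell and 1 rose. Of 61 tested predicted genes and Rik clones 12 fell and 4 rose, of 13 small GTPase regulators 5 fell and 1 rose, and of 9 kinesins and dyneins 4 fell and 1 rose. Calcium channels had 2 of 8, axon guidance genes 2 of 11, chaperones 2 of 4, proteasome and ubiquitin genes 1 of 6, cyclic nucleotide signalling 1 of 9 and histones 1 of 1 lower. Zinc finger genes of the Zfp series had 3 of 9 lower and 1 higher, and cadherins and protocadherins 1 of 5 lower and 2 higher. Sodium channels had 1 of 3 and MAP kinases 1 of 2 higher. The 1 tested gene of cholesterol synthesis and lipid transport did not pass, and no immediate early gene was tested. At 100 nuclei, 2 solute carriers rose, 2 receptor-type phosphatases fell, the small GTPase list had 1 gene higher and 1 lower, and the Zfp series had 1 lower, against 1.16% higher and 2.02% lower of all tested genes.

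Short genes carried a smaller part of the counts in 10-nucleus mineral oil wells. Genes that span under 10 kb of genome held 6.18% ± 1.54 of mouse counts there (n = 8, 3.92% to 8.44%) and 10.7% ± 0.726 in heated xylene (9.79% to 11.7%), with no overlap. Of 107 such genes tested, 60 fell and 9 rose at 10 nuclei, against 35.2% and 7.76% of all tested genes, and 2 fell and 3 rose at 100, against 2.02% and 1.16%. Their median log2 fold change was -2.21 at 10 nuclei (-1.98 at the bound) against -0.63 for all tested genes. At 100 nuclei the shares were 12.1% ± 0.844 and 11.2% ± 0.940, and frozen wells had 17.1% ± 1.20 and 19.4% ± 1.07. Malat1 is in this class and alone held 8.39% and 10.1% of the frozen pools of 10 and 100 nuclei. It held 1.31% of the mineral oil pool and 1.54% of the heated xylene pool at 100 nuclei. Genes of 10 to 50 kb, the class of Ctsc and Tspan3, held 38.9% ± 6.59 and 33.2% ± 2.47 at 10 nuclei. Genes over 200 kb held 28.5% ± 2.64 and 26.6% ± 1.16 at 10 nuclei and 26.4% ± 0.675 and 28.6% ± 1.49 at 100; of 448 tested, 134 fell and 28 rose at 10 nuclei, near the shares of all tested genes.

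At 100 nuclei 41 genes were called, and besides those above they came from several roles. Among those lower were Aplp1, a relative of the amyloid precursor protein (log2 -1.56, SE 0.34, edgeR adjusted p = 0.00445), Dcx, a microtubule protein of young neurons (-2.41, SE 0.69, 0.0429), and Dbi, an acyl-CoA-binding protein (-2.16, SE 0.63, 0.0470). All 3 were also lower at 10 nuclei. Among those higher were Gpc1, a glypican (3.05, SE 0.64, adjusted p = 0.00282), and Ckb, the brain creatine kinase (1.35, SE 0.32, 0.0116). Gpc1 was lower at 10 nuclei (-3.97 on the log2 scale), and Ckb did not pass there. These 5 genes are named after their values were seen.

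Some genes were present in whole pools and at 0 in others, in opposite directions at the 2 nuclei numbers. Kat5, a histone acetyltransferase (chromosome 19, 5603014 to 5610237, minus strand), had 66 counts over 8 of 8 mineral oil wells of 10 nuclei and 68 over 8 of 8 heated xylene wells of 100 nuclei. It had 0 counts in all mineral oil wells of 100 nuclei and all heated xylene wells of 10. It was at least 84.0-fold higher in mineral oil at 10 nuclei and at least 18.7-fold lower at 100. Kctd2, an adaptor of cullin ubiquitin ligases (chromosome 11, 115420128 to 115431274, plus strand), had the same layout, with 29 and 139 counts in the same pools and 0 in the other two. Arhgef7, an exchange factor for Rac and Cdc42, had 0 counts in mineral oil and 97 in heated xylene at 10 nuclei but 175 and 25 at 100. These 3 had the largest difference of the method effect between nuclei numbers.

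Gad2, the second GABA-synthesizing enzyme (chromosome 2, 22622205 to 22693874, plus strand), is named after its values were seen. It had 139 counts over 8 of 8 heated xylene wells of 100 nuclei and 0 in the other 3 pools of these methods. In SMART-Seq2 wells Gad2 was at 78.1, 315 and 0 CPM in mineral oil wells of 100, 50 and 10 nuclei and at 70.6, 351 and 12.7 CPM in heated xylene.

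**Figure D5:**
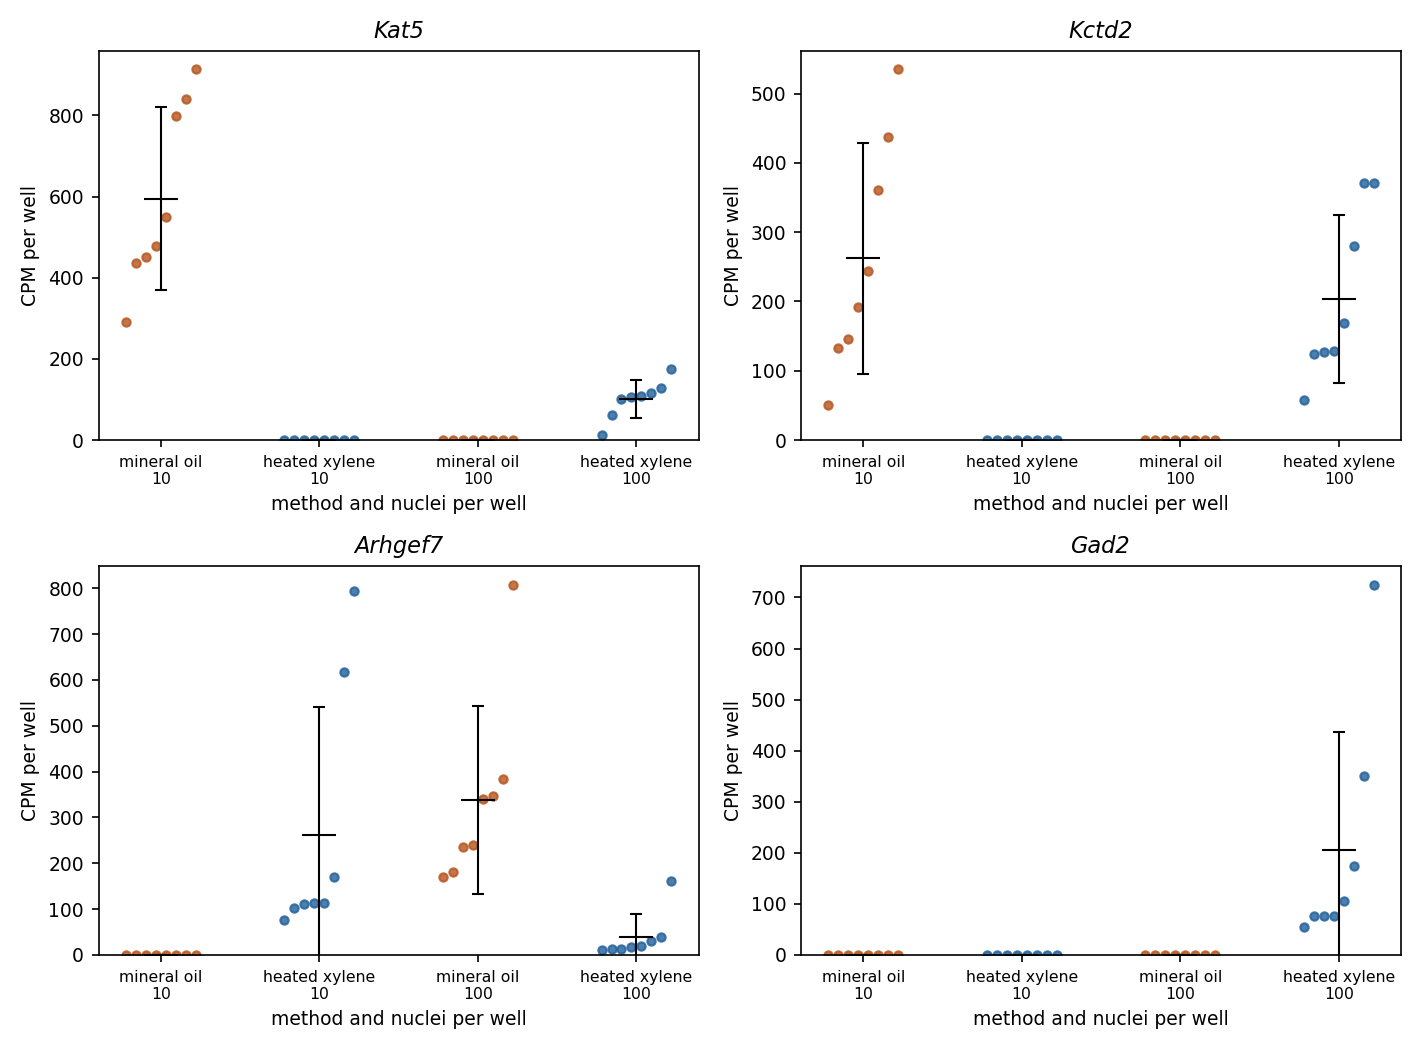
CPM per well of Kat5, Kctd2, Arhgef7 and Gad2 in the 4 pools of mineral oil and heated xylene (vertical axes from 0); points are wells (n = 8 per pool), black bars the mean and SD. Kat5 and Kctd2 are at 0 in 2 whole pools and present in 8 of 8 wells of the other 2, and Gad2 is present in 1 pool.

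The same methods were also measured by SMART-Seq2, another chemistry. Its bulk table held 1 well each of 100, 50 and 10 nuclei per method. The 10-nucleus wells held 6675 genes in mineral oil and 8252 in heated xylene, and the 50 largest genes took 20.2% and 18.1% of counts there. EdgeR called 0 of 7577 genes between the methods over these 6 wells (0%; 160 at an unadjusted p under 0.05; DESeq2 called 28).

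In the mineral oil wells of SMART-Seq2, oligodendrocyte and striatal genes were lower and granule neuron genes higher. SCRB-seq differed in part: its median granule sum was lower in mineral oil at 10 nuclei, and no granule gene passed at 100. Of its tested striatal genes Meis2 fell and Pde10a did not pass at 100 nuclei. Oligodendrocyte genes summed to 1139, 2366 and 884 CPM in mineral oil wells of 100, 50 and 10 nuclei and to 3201, 2972 and 2395 in heated xylene, lower in 3 of 3. Their median log2 difference was -2.25 over 10 tested genes, 9 of them negative, against -0.20 for all genes. Striatal genes summed to 1977, 1590 and 1631 CPM against 2462, 2862 and 2500, also lower in 3 of 3. Granule neuron genes summed to 7676, 5325 and 8719 CPM against 4742, 4289 and 3097, higher in 3 of 3, with 9 of 10 tested genes positive. Inhibitory neuron genes were lower in 2 of 3 (1393, 2198 and 1231 CPM against 3387, 5265 and 1049). Astrocyte genes summed to 2750, 2314 and 330 CPM against 4355, 1847 and 8202, lower in 2 of 3, with a median log2 difference of -1.31 and 8 of 8 tested genes negative.

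Respiratory chain genes summed to 5813, 5725 and 5334 CPM in mineral oil and 5966, 6692 and 6069 in heated xylene. Glycolysis genes summed to 2612, 2825 and 2265 CPM and to 1897, 1856 and 1791, higher in mineral oil in 3 of 3.

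Gene by gene, 29 of the 39 genes called at 100 nuclei and tested in both chemistries (74.4%) had the same direction in SMART-Seq2, against 651 of 1170 (55.6%) for all genes tested in both. Of those called at 10 nuclei, 290 of 536 (54.1%) had the same direction, against 629 of 1170 (53.8%). These shares are descriptions across genes that share wells, with no test.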

How the data were processed

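Bulk SCRB-seq wells were assigned to methods and nuclei numbers from the deposited annotation. The deposited table holds raw counts per gene and well on mouse and human genes; per the submitters' processing notes the builds were mm10 and hg19. Aligner and UMI handling were not given in the sources used here. Mouse counts per well of the 32 wells compared ranged from 7512 to 147257. The other deposited number used, the nuclei per well (10 or 100), is the authors' annotation.

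Mouse genes were fitted with edgeR 4.0.16 in R 4.3.3 (TMM, filterByExpr by group at its defaults, quasi-likelihood test, Benjamini-Hochberg adjusted p under 0.05) on 4 group means of method and nuclei number; 1288 of 19006 genes passed the filter. The standard error is the log2 fold change divided by the square root of F. The 6 SMART-Seq2 wells were fitted with method and nuclei number. Per-well measures were tested with 2-sided permutation tests, exact for 8 against 8 and otherwise with 100000 resamples of methods within nuclei number, adjusted over 16 tests. The fit was tested on simulated data. DESeq2 1.42.0 was an alternative.

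Spans came from GENCODE M21 on GRCm38, which held 1259 of the 1288 tested genes. The 11 marker lists and 36 other lists, and the comparison itself, were chosen with earlier results of these data known. For each list the text names at most 4 called genes of the largest change over both numbers and the most abundant tested gene, and the 3 genes whose method effect differed most between nuclei numbers; Malat1 was also named, and Gabra6, Mag, Gad2 and the genes marked as such were chosen after their values were seen. Some genes that this rule covers are not reported here. Pool sums and the SCRB-seq barcode as a block were added after seeing the data. Room-temperature xylene wells and human genes stayed out of the main fit. Python 3.11, numpy 2.4.6, pandas 2.3.3 and matplotlib 3.10.9 were used.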

Additional observations from a re-analysis of the deposited data

Results flagged for a closer look

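The method difference differed between nuclei numbers for 3 of the 4 per-well measures as means; mouse counts, passed on the log2 scale only (-1.60, adjusted permutation p = 0.0103). Mineral oil minus heated xylene was lower at 10 than at 100 nuclei by 3709 mouse genes per well (a difference of -3709; permutation p = 0.00332, adjusted over 16 tests 0.00483). It was higher at 10 nuclei by 10.0 percentage points for counts on human genes (10.03; adjusted permutation p = 0.00331, but 0.0751 for the difference of medians, 10.81) and by 20.9 points for the share of the 50 largest genes. At the gene level, edgeR called 380 genes for this difference, led by Kat5 (13.50 on the log2 scale), Kctd2 (13.32) and Arhgef7 (-10.06). Each of these 3 genes was at 0 counts in at least 1 whole pool, so their fitted values are no measure of size. In Dixon's test of the 4 per-well measures in each of the 4 groups (16 tests), no well passed the critical value; gene and list levels were not tested this way.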

How the results depend on the processing

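Depth and the pools limit these results. The thinned fit tested 87 genes. Over both nuclei numbers the 488 calls became 2325 without the filter (16937 genes), 804 with all 48 FFPE wells, 219 in an additive fit, 109 without nuclei number, 11 in thinned wells (5 higher, 6 lower), and 0 with wells summed over 6 or over 4 pools (53 and 16 at an unadjusted p under 0.05; smallest edgeR adjusted p 0.802 and 0.924). The 553 calls at 10 nuclei became 3055, 949 and 15 (no filter, 48 wells, thinned), and the 380 for the difference between numbers 2009, 686 and 5. The 41 calls at 100 nuclei became 73 with DESeq2, 2742 without the filter, 124 with 48 wells, 1 in thinned wells and 70 with the SCRB-seq barcode as a block, which was chosen after seeing the data, as were the pool sums. The cause of these shifts was not tested, beyond the number of genes or samples each fit holds. Other settings kept these totals within 1.5 times, though DESeq2 called 155 genes higher at 10 nuclei against 100.

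In SMART-Seq2 the 0 calls became 28 with DESeq2, 12 without the filter, and 4 to 57 when a well was left out, with 57 without the 10-nucleus mineral oil well and 47 without the 10-nucleus heated xylene well; a lone well then stands for its nuclei number. Mouse counts per well on the log2 scale gave a difference between numbers of -1.60 (adjusted permutation p = 0.0103), and the difference of medians for human counts gave 10.81 (0.0751).

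Among the results of named genes that were followed across settings, all but 10 of the alternative values kept their direction. Some named genes, such as Ctsc, Gpc1 and Ckb, were not followed in this way. Without nuclei number, Pde10a (0.14), Fat2 (0.15), Chn2 (0.11), Pfkm (0.0304) and Mapt (-0.0893) reversed. Pde10a (0.125 and 0.0947) and Gpc5 (0.0138, 6 pools) reversed in pool sums, mt-Nd1 (-0.13) without the filter and Mapt (-0.13) with the barcode block.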
